A study of Mus musculus with 6 samples.

Results

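Integrins and the cytoplasmic proteins of focal adhesions were followed in bulk RNA sequencing of fibroblasts of the tendon enthesis, where a tendon is anchored in bone. The members were taken by gene symbol: every symbol that starts with Itga or Itgb and a digit, the integrin genes Itgal, Itgam, Itgav, Itgax and Itgae, and 17 named adhesion proteins. The rule found 46 of the 17419 genes in the deposited table. They are 25 integrin subunits, 17 adhesion proteins and 4 further symbols that the rule takes by spelling, namely Itgb1bp1, Itgb1bp2, Itgb3bp and Itgb2l.

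All 6 samples came from SKG mice, a strain with a mutation of Zap70 that is prone to autoimmune arthritis. Of these samples, 3 carry the treatment label diseased and 3 the label un-diseased, numbered 1 to 3 in each group. The titles call the diseased samples NTS and the others UN, abbreviations that the labels do not explain. The labels used here give no age, no agent that induced disease, and no word on whether the cells were cultured or sorted or came from separate animals. P-values therefore measure no more than the spread of these samples, and that spread may be technical. Total counts lay between 16720612 and 18290873 per sample.

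Integrins are pairs of an alpha and a beta chain that bind matrix proteins outside the cell. Inside, talin and kindlin bind the beta chain, vinculin and the complex of ILK, PINCH and parvin tie it to actin, and FAK, Src, paxillin and p130Cas pass signals on from the adhesion. In tendon and its insertion, integrins hold fibroblasts to collagen and are among the structures through which these cells sense load.

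Against the label fibroblast, all 9 fibroblast markers and all 7 tendon and enthesis markers were measured in every sample. The summed level of the fibroblast markers was 114473 to 144444 CPM in diseased and 85835 to 120555 CPM in un-diseased samples. Of these 9 markers 6 had positive fold changes and 3, Dcn, Pdgfra and Pdpn, negative ones (median 0.39 on the log2 scale). Dcn, at -0.53, was lower in every diseased than in every un-diseased sample. CPM is the count as a share of the TMM-scaled library total, in the usual unit of this measure. The tendon and enthesis markers were higher in every diseased sample in sum, at 8488 to 11049 CPM against 5800 to 6538 CPM, with a median log2 fold change of 0.91. Of these 7 markers 6 had positive fold changes and Comp a negative one (-0.16 on the log2 scale), and Comp and Tnmd did not pass. Thbs4, Fmod and Cilp rose, and Scx and Mkx also passed with the replicate number as a block. The part of this shift in the members' values was not tested. Markers of other cells were low but present: 18 macrophage markers summed to 187 to 511 CPM in the diseased and 47.1 to 253 CPM in the un-diseased group. The 5 B cell markers stayed at or under 0.682 CPM in sum. The 7 chondrocyte markers summed to 215 to 493 CPM in diseased and 104 to 221 CPM in un-diseased samples. All 5 tested had positive fold changes (median 0.94), and Col11a1 passed with the block. Pericyte and smooth muscle markers summed to 186 to 257 against 221 to 257 CPM. Of the 8 tested, 4 had positive and 4 negative fold changes (median 0.01). Abcc9, at 32.0 ± 8.86 against 62.4 ± 15.8 CPM (SD, n = 3 each), passed as lower with the block. Schwann cell markers summed to 27.8 to 37.9 against 14.5 to 22.3 CPM. Of 3 tested, Ncam1 rose and 2 had negative fold changes. The part of these cells in the members' values was not tested. In bulk RNA, fewer cells of a type and less RNA per cell cannot be told apart, which holds for every value that follows.

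Promoters from RefSeq (build GRCm38.p6) are shown for 3 integrin subunits: Itga2, which fell in diseased samples, and Itga5 and Itgb5, abundant subunits whose changes passed with the replicate number as a block. The 250 bases before each start are printed 5′ to 3′ on the strand of the gene, with each GC box (GGGCGG on either strand) in capitals. Itga2 lies at chr13:114932101-114932350 on the minus strand, Itga5 at chr15:103366792-103367041 on the minus strand and Itgb5 at chr16:33829415-33829664 on the plus strand.
Itga2: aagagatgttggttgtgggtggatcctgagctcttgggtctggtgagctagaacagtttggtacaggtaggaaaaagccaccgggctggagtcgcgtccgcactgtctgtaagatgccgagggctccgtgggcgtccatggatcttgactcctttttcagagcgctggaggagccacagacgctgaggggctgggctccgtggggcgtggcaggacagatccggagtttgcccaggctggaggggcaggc
Itga5: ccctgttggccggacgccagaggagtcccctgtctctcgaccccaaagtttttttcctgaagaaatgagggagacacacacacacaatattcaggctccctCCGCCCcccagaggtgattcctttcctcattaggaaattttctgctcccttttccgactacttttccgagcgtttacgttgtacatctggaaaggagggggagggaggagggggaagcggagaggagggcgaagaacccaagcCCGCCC
Itgb5: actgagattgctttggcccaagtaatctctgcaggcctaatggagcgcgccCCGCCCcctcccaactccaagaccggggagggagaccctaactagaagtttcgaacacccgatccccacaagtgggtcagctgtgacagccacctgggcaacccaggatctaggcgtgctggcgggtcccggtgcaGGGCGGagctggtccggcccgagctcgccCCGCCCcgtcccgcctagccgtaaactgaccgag
The GC box occurred 0 times before Itga2, 2 times before Itga5 and 3 times before Itgb5, and 32.7% of the 32851 promoter windows in the table hold at least 1. The TEAD motif GGAATG, the AP-1 motif TGANTCA, the NF-kB motif and the CCAAT box had 0 matches in these 3 windows on either strand. They occur in 12.6%, 6.75%, 1.41% and 33.8% of all windows. A match or its absence describes these letters alone.

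Of the 46 members, 43 passed the filter on low counts and were tested. Itga2 and paxillin (Pxn) fell in diseased samples and tensin 3 (Tns3) rose. By edgeR's quasi-likelihood test over all 13264 tested genes, 1 member rose, 2 fell and 40 did not pass. That is 6.98% of the tested members, where 3.73% of all tested genes were called (1.61% higher and 2.13% lower). At an unadjusted p under 0.05 there were 14 members (32.6%), 5 higher and 9 lower, where 27.8% of all tested genes were (13.4% higher and 14.4% lower). The median log2 fold change, diseased minus un-diseased, was -0.03 for the 43 members and 0.02 for all tested genes. Fold changes of the members ran from -1.35 (Itga2) to 1.53 (Itgam), and 17 of the 43 were under 0.2 in size on the log2 scale.

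The labels do not say what the replicate numbers stand for, so a fit with the number as a block was run as an alternative. Same-numbered samples moved together around their group means in these same data, which does not show what the numbers stand for. With the replicate block 6 members rose and 10 fell, or 37.2% of the 43, where 23.9% of all tested genes were called (10.5% higher and 13.3% lower). The risen members with the block were Tns3, Tgfb1i1, Itgb5, Itgb2, Itgal and Itgam. The fallen ones were Itga2, Itga6, Itgb4, Itga7, Itga5, Itga9, Pxn, Fermt2, Zyx and Lims2. DESeq2 without the block called 8 members, 2 higher and 6 lower, where it called 11.4% of all tested genes (4.79% higher and 6.65% lower). The 2 were Itgb5 and Tns3, and the 6 were Itga2, Itga6, Itga7, Itgb4, Pxn and Fermt2. By the q-values of the authors' deposited table, 8 members are under 0.05, 6 lower and 2 higher in diseased, where 7.81% of its genes are. The groups did not overlap for 17 of the 43 members, 8 higher and 9 lower, and for 31.9% of all tested genes (16.5% higher and 15.4% lower).

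Leaving out 1 pair at a time from the fit with the block cost some calls. Tns3, Pxn, Itga6, Itgb4, Itgb2, Itgal and Itgam passed with any pair left out. The other 9 lost their call without at least 1 pair. The adjusted p of Itgb5 by edgeR was 0.0819, 0.0509 and 0.0871 without pair 1, 2 and 3, that of Itga9 was 0.07, 0.0515 and 0.18, and that of Zyx 0.0963, 0.0515 and 0.163. Itga7 did not pass without pair 1 (0.0622) or 3 (0.14), nor Lims2 without pair 1 (0.126) or 2 (0.061). Without pair 3 the call was lost for Itga2 (0.0521), Itga5 (0.076), Fermt2 (0.0927) and Tgfb1i1 (0.0698). The fold changes kept their sign: without pair 3 Itga2 was at -1.22, where all pairs gave -1.32, and Fermt2 at -0.40, where all pairs gave -0.51. Other members passed with 1 pair left out and not with all: Itgb3 without pair 3 (0.0396), Itga8 (0.0189) and Itgav (0.0411) without pair 1, and Itgax without pair 2 (0.0139).

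**Figure D1:**
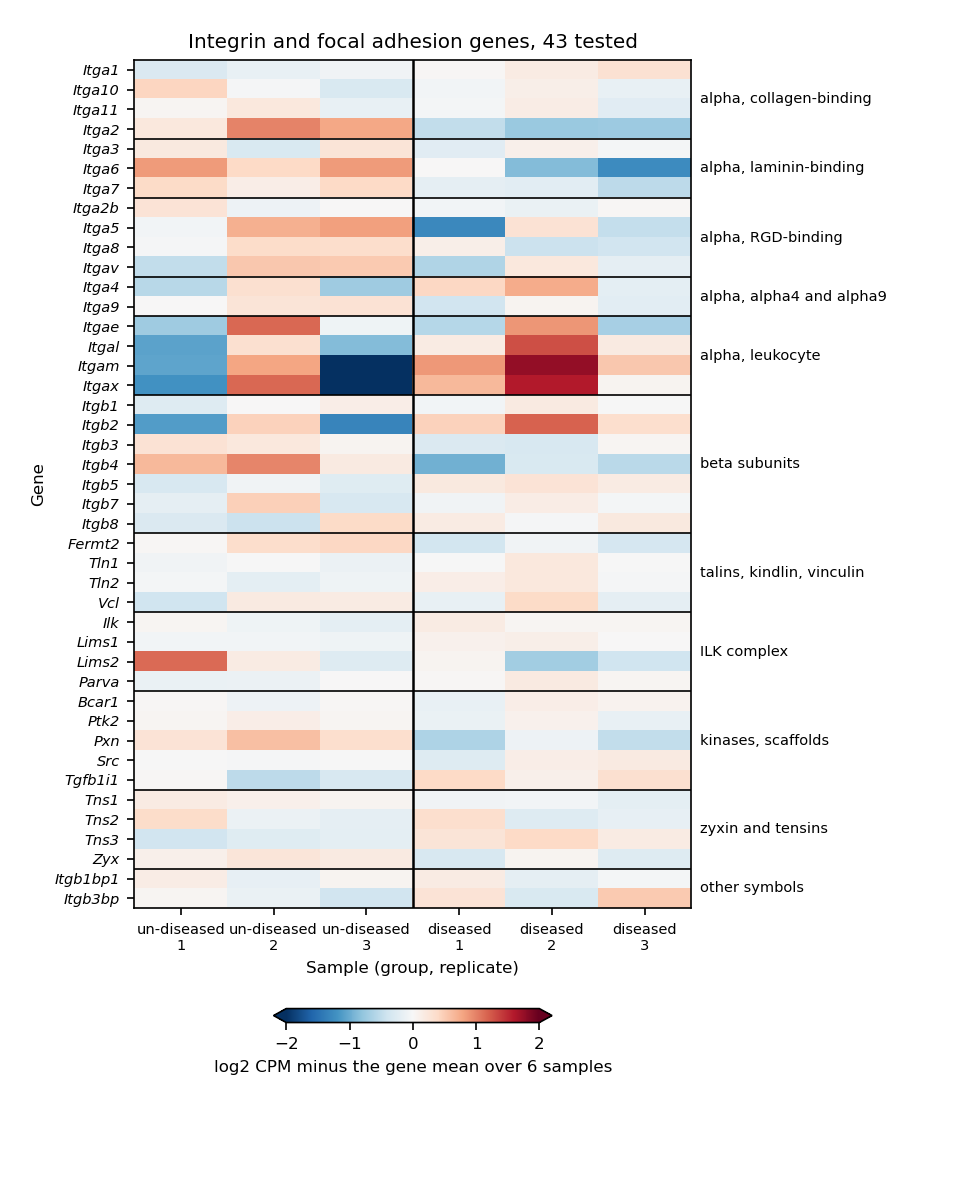
Each row is 1 of the 43 tested genes and each column 1 sample; colour gives log2 CPM minus the mean of the gene over the 6 samples, with values beyond 2 in either direction at the end of the scale, and lines part the roles. Itga2, Itga6, Itgb4 and Pxn are above their mean in all 3 un-diseased samples, and Itgam, Itgal, Itgax and Itgb2 are highest in replicate 2 of both groups.

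Integrin subunits differed widely in level. Per kilobase of merged exons, the beta1 chain Itgb1, partner of most alpha chains, had 174 to 236 CPM per kb over the 6 samples. Itga5, the fibronectin receptor chain, spanned 70.9 to 305 CPM per kb and overlapped Itgb1. By mean level next came Itgb5 at 58.3 to 88.7 CPM per kb, which overlapped Itga5 and exceeded it in diseased replicate 1 (84.1 against 70.9). It was followed by the collagen receptor chain Itga11 at 32.7 to 44.3 and Itgav at 15.6 to 34.3. The ranges of Itgb5 and Itga11 did not overlap, while those of Itga11 and Itgav did. Of the other tested subunits the highest was Itgb3, at 8.28 to 12.7 CPM per kb. Itga2 was a low gene on this scale, with 0.873 to 2.94 CPM per kb. Merged exons of all annotated transcripts overstate the length of a gene that uses few of them, and Itga1 has 18599 merged bases.

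**Figure D2:**
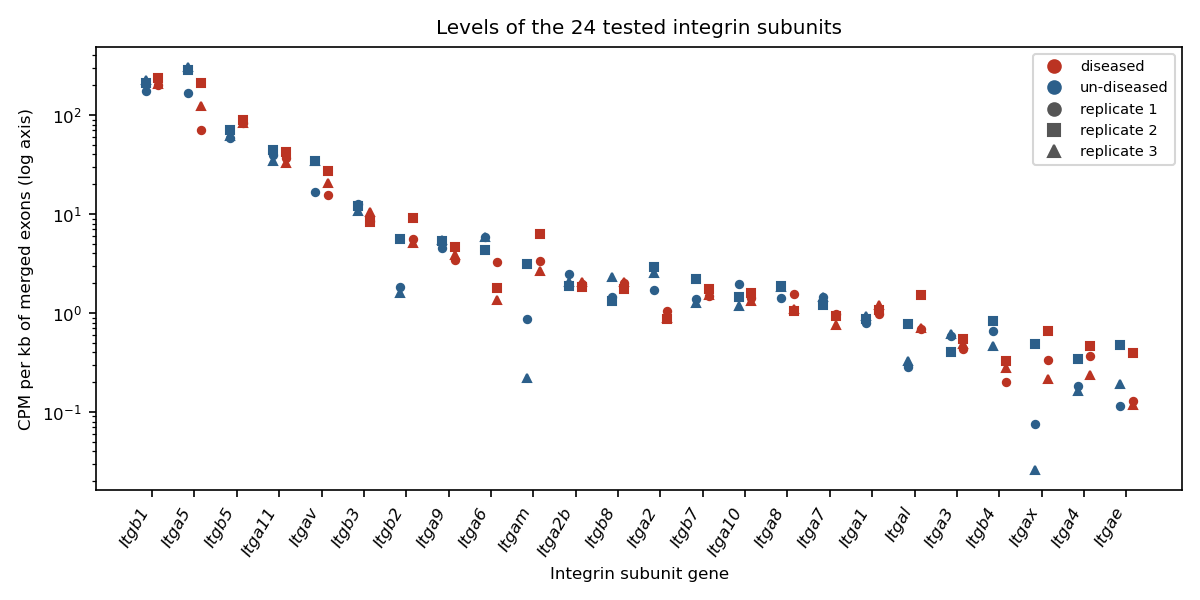
CPM per kilobase of merged exons on a log axis for the 24 tested integrin subunits, ordered by mean level, with 1 point per sample, colour for the group and shape for the replicate number. Itgb1 and Itga5 lead, and the 6 samples of Itgam and Itgax are the most spread.

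Among the 4 alpha chains that bind collagen, Itga2 fell and the others did not pass. Itga2, at chromosome 13 from 114833081 to 114932100, pairs with Itgb1 as a collagen and laminin receptor known from platelets and epithelia. It had 7.48, 6.23 and 6.31 CPM in diseased replicates 1, 2 and 3 and 12.2, 20.98 and 18.1 CPM in un-diseased ones. The diseased samples lay close together and all below the un-diseased ones. The log2 fold change was -1.35 (SE 0.22, adjusted p = 0.0272 by edgeR), with means of 6.67 ± 0.702 in diseased and 17.1 ± 4.48 CPM in un-diseased ones (SD, n = 3 each). Its sign held in every alternative run, and the adjusted p passed without un-diseased replicate 1 (0.0302). It did not pass without diseased replicate 1 (0.0548), 2 (0.0541) or 3 (0.132), or without un-diseased replicate 2 (0.0897) or 3 (0.079). Platelet markers summed to 4.30 to 8.65 CPM in the diseased and 5.82 to 6.89 CPM in the un-diseased group. Epithelial markers were lower in every diseased sample in sum, at 1.19 to 2.86 CPM against 3.86 to 6.39 CPM, and Perp, 1 of the 2 tested, fell. The 6 mast cell markers summed to 2.91 to 17.5 CPM in diseased samples against 4.52 to 37.3 CPM. All 5 tested mast cell markers had negative fold changes (median -1.36), and 4 passed with the block (80%, where 23.9% of all tested genes did). Without the block 0 passed by edgeR, 0 were at an unadjusted p under 0.05 and 0 were called by DESeq2. The shares of all tested genes were 3.73%, 27.8% and 11.4%. The part of these cells in the change of Itga2 was not tested.

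Itga11, the main collagen-binding alpha chain of these samples by level, had 191, 217 and 168 CPM in diseased and 202, 227 and 177 CPM in un-diseased replicates 1, 2 and 3. The groups overlapped, and within each pair of samples with the same number the diseased one was lower by a small step (log2 differences -0.08, -0.07 and -0.08). Its log2 fold change was -0.08 (SE 0.14), and upper-quartile scaling turned its sign. Itga1, another collagen receptor chain, had 18.3, 20.05 and 22.3 CPM in diseased and 14.7, 16.3 and 17.2 CPM in un-diseased samples. These did not overlap, yet the change of 0.33 (SE 0.12) had an adjusted p of 0.143 by edgeR. Itga10, the chain best known from cartilage, had 7.34, 8.28 and 6.85 CPM in diseased and 10.3, 7.51 and 6.13 CPM in un-diseased samples, and its groups overlapped.

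The laminin-binding chains Itga6 and Itga7 and the beta4 chain Itgb4 were all lower in every diseased than in every un-diseased sample, without passing the unblocked edgeR test. Itga6, which pairs with Itgb1 or Itgb4, had 29.5, 16.1 and 12.2 CPM in diseased and 53.4, 39.0 and 53.5 CPM in un-diseased replicates 1, 2 and 3. Its log2 fold change was -1.33 (SE 0.31, adjusted p = 0.0586 by edgeR). With the replicate block it was -1.40 (SE 0.21) with an adjusted p of 0.00461. The adjusted p was 0.0489 with limma-voom and 0.000806 with DESeq2. Itgb4, the hemidesmosome chain of epithelia, had 1.42, 2.30 and 1.94 CPM in diseased and 4.59, 5.76 and 3.28 CPM in un-diseased samples. It rests on 29 to 92 counts per sample, and its log2 fold change of -1.27 (SE 0.30) had an adjusted p of 0.0588 by edgeR, or 0.0103 with the replicate block. Without the block Itgb4 passed with DESeq2 (adjusted p = 0.00615) and not with limma-voom (0.0623). Of its merged exon bases, 537 overlap B230344G16Rik on the other strand, and whether the authors counted by strand is not given in the sources used here.

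Itga7, a laminin receptor chain known from muscle, had 7.83, 7.596 and 6.15 CPM in diseased and 11.6, 9.71 and 11.6 CPM in un-diseased samples. Its change of -0.61 (SE 0.16) had an adjusted p of 0.0724 by edgeR, or 0.0252 with the replicate block. Without the block Itga7 passed with DESeq2 (adjusted p = 0.0257) and not with limma-voom (0.0748). Itga3, the remaining laminin-binding alpha chain, had 2.45, 3.11 and 2.81 CPM in diseased and 3.34, 2.32 and 3.47 CPM in un-diseased samples, again with overlap. Epithelial markers, which can accompany Itga6 and Itgb4, were low, and lower in diseased samples in sum, as given beside Itga2. Of the 7, only 2 passed the filter on low counts. Perp fell by 1.58 on the log2 scale, and Krt5, at -1.90, passed with the block. Krt14, Krt8 and Krt18 had no count in at least 1 sample. Cdh1 had a higher mean in diseased samples (0.354 against 0.278 CPM). Endothelial markers summed to 49.9 to 67.6 CPM in the diseased and 59.8 to 85.2 CPM in the un-diseased group, most of it from Tek (31.8 to 41.8 CPM against 47.2 to 73.3 CPM), which passed as lower with the block. Of the 8 tested endothelial markers 6 had positive fold changes (median 0.73), Erg rose by 1.43 on the log2 scale, and Tie1 and Egfl7 also passed as higher with the block. The part of these cells in the values of Itga6 and Itgb4 was not tested.

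The laminin chains themselves were in the list of 40 matrix ligands of integrins found in the table, of which 39 were tested. In that list 4 rose and 3 fell, or 17.9% where 3.73% of all tested genes were called, the median log2 fold change being 0.17 against 0.02 for all tested genes. The 3 that fell were all laminin chains. With the block 9 rose and 7 fell, or 41% where 23.9% of all tested genes were called. Lama2, the alpha chain of the laminin around muscle and nerve, had 244, 302 and 260 CPM in diseased and 474, 526 and 469 CPM in un-diseased samples, so its log2 fold change was -0.87 (SE 0.13, adjusted p = 0.0254 by edgeR). Lamb2 went from 942 ± 60.5 to 544 ± 67.8 CPM (SD, n = 3 each) and Lama3, the alpha chain of epithelial laminin, from 22.7 ± 3.89 to 10.4 ± 2.64 CPM. Lama3 was the last of the 7 by adjusted p and, like the genes next named, was picked after its values were seen. The other tested laminin chains, Lama4, Lamc1, Lamb1 and Lama5, did not pass. Lamb1 had a positive fold change of 0.46 on the log2 scale, with 757 ± 158 in diseased against 548 ± 118 CPM in un-diseased samples. Lama5 had 25.7 ± 5.52 and 33.9 ± 7.76 CPM. Lama4 had 602 ± 67.6 in diseased against 589 ± 35.4 CPM in un-diseased samples, and Lamc1, the gamma chain shared by most laminins, 850 ± 116 and 974 ± 70.2 CPM. The 4 ligands that rose were Spp1, Tnn, Thbs4 and Col12a1, at log2 fold changes of 1.59, 1.68, 1.16 and 1.23, and Thbs4 is also among the tendon markers. Fn1, the fibronectin bound by the chains Itga5 and Itgb1, had 30005 ± 2734 in diseased against 27875 ± 4921 CPM in un-diseased samples and did not pass.

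The chains that bind the RGD sequence of fibronectin and vitronectin did not pass the unblocked edgeR test with TMM scaling. Without the block Itgb5 passed with DESeq2 and with upper-quartile scaling, as given below. All 4 alpha chains had negative fold changes, and the beta chains had both signs. Itga5 had 350, 1041 and 615 CPM in diseased and 819, 1403 and 1504 CPM in un-diseased replicates 1, 2 and 3. Diseased replicate 2 was above un-diseased replicate 1, so the groups overlapped, while the diseased sample was lower within every pair (log2 differences -1.23, -0.43 and -1.29). The log2 fold change was -0.89 (SE 0.40, adjusted p = 0.195 by edgeR) and, with the replicate block, -0.98 (SE 0.19, adjusted p = 0.0096). Itgav, the alpha chain of the vitronectin receptors, had 167, 292 and 223 CPM in diseased and 181, 368 and 365 CPM in un-diseased samples. As for Itga5, replicate 1 was the lowest sample in both groups, and the change of -0.42 (SE 0.31) did not pass with the block either (adjusted p = 0.0674 by edgeR). Itga8 had 11.5, 7.78 and 8.09 CPM in diseased and 10.4, 13.6 and 13.5 CPM in un-diseased samples, and did not pass. Itga2b, the platelet chain, had 10.7, 10.02 and 11.2 CPM in diseased and 13.4, 10.3 and 11.1 CPM in un-diseased samples. The groups of both overlapped.

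Itgb5 and Itgb3, which both pair with Itgav, differed in sign. Itgb5 had 299, 315 and 292 CPM in diseased and 207, 249 and 219 CPM in un-diseased samples, and the groups did not overlap. Its log2 fold change of 0.42 (SE 0.12) had an adjusted p of 0.0835 by edgeR. The adjusted p was 0.0225 with the replicate block, 0.0155 with DESeq2 and 0.0381 with upper-quartile scaling. Itgb3 had 49.6, 48.9 and 62.4 CPM in diseased and 74.7, 70.6 and 63.5 CPM in un-diseased samples. Its change of -0.38 (SE 0.13) did not pass by edgeR with or without the block (adjusted p = 0.0582 and 0.121). Whether the changes of Itgb5 and Itgb3 differ from each other was not tested.

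Itgb1 itself had 824, 962 and 848 CPM in diseased and 712, 861 and 932 CPM in un-diseased samples. The groups overlapped, and the log2 fold change was 0.07 (SE 0.15). Itgb8, a chain known for activation of latent TGF-beta, had 21.3 ± 1.62 in diseased against 18.9 ± 6.05 CPM in un-diseased samples, and Itgb7 had 4.37 ± 0.37 and 4.45 ± 1.42 CPM (SD, n = 3 each). Neither passed. Itgb6, an epithelial chain, had at most 5 counts in a sample and was not tested. The tenascin and osteopontin receptor chain Itga9 had 26.4, 35.9 and 29.8 CPM in diseased and 34.8, 41.2 and 42.3 CPM in un-diseased samples. It changed by -0.36 (SE 0.14, adjusted p = 0.153 by edgeR), and passed with the replicate block (adjusted p = 0.0361).

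**Figure D3:**
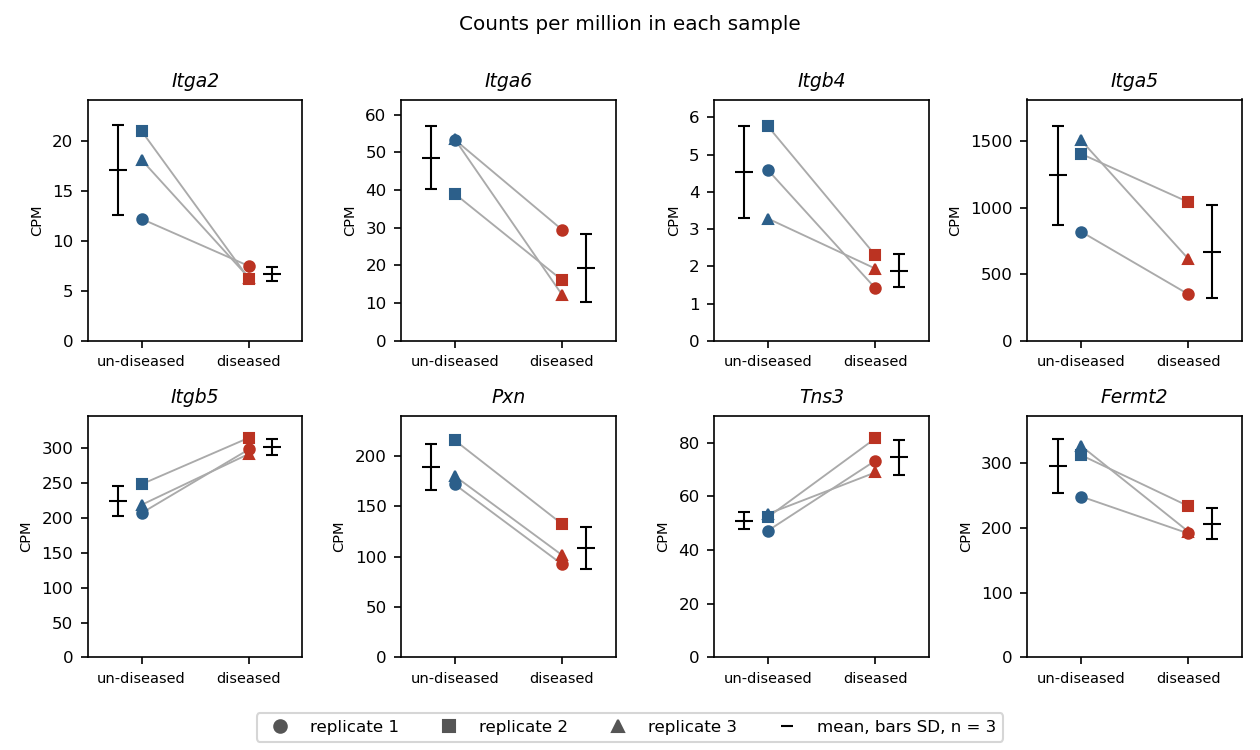
CPM of 8 members in each sample, un-diseased at the left and diseased at the right of each panel, with grey lines joining samples of the same replicate number, shapes for the number, and mean with SD (n = 3) beside the points. All 3 lines fall for Itga2, Itga6, Itgb4, Itga5, Pxn and Fermt2 and rise for Itgb5 and Tns3.

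Itgam, Itgb2, Itgal and Itgax, chains of leukocyte integrins, were higher in the diseased sample of each pair, as was the summed level of macrophage markers. Itgam, the alpha chain of the complement receptor of macrophages and neutrophils, had 16.7, 31.2 and 13.3 CPM in diseased and 4.33, 15.8 and 1.12 CPM in un-diseased replicates 1, 2 and 3. The groups overlapped because un-diseased replicate 2 was above diseased replicate 3. Its log2 fold change was 1.53 (SE 0.76, adjusted p = 0.232 by edgeR), and 1.88 (SE 0.36, adjusted p = 0.00967) with the replicate block. Exons of Itgam share 3450 bases with the gene model Gm49368 on the same strand. Itgb2, the shared beta chain of leukocyte integrins, had 16.9, 28.0 and 15.5 CPM in diseased and 5.58, 16.97 and 4.83 CPM in un-diseased samples. It changed by 1.14 (SE 0.48, adjusted p = 0.176 by edgeR), and by 1.29 (SE 0.20, adjusted p = 0.00462) with the block. Itgal, the alpha chain of LFA-1, had 4.55, 10.02 and 4.59 CPM in diseased and 1.88, 5.07 and 2.17 CPM in un-diseased samples and passed with the block (adjusted p = 0.006 by edgeR) but not without it (0.188).

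Itgax, the chain of CD11c, had 1.61, 3.18 and 1.03 CPM in diseased and 0.365, 2.32 and 0.124 CPM in un-diseased samples and did not pass. Itga4, a chain of the VCAM1 receptor, had 5.09, 6.41 and 3.29 CPM in diseased and 2.55, 4.76 and 2.29 CPM in un-diseased samples and did not pass either. Itgae, the chain of intraepithelial lymphocytes, had 0.587, 1.81 and 0.54 CPM in diseased and 0.521, 2.19 and 0.868 CPM in un-diseased samples, and no common direction within pairs. The summed macrophage markers had 343, 511 and 187 CPM in diseased and 110, 253 and 47.1 CPM in un-diseased replicates 1, 2 and 3, and in both groups replicate 2 was the highest sample, as for Itgam, Itgb2, Itgal and Itgax. Of 18 macrophage markers 17 were tested, and all 17 had a positive fold change (median 1.22). By edgeR 0 were called without the block and 17 with it, where 3.73% and 23.9% of all tested genes were. Without the block 7 of these markers (41.2%) were at an unadjusted p under 0.05, where 27.8% of all tested genes were. DESeq2 called 3 of them (17.6% against 11.4%). Only Fcgr1 of the 18 macrophage markers had no count in a sample. Neutrophil markers summed to 197 to 291 CPM in the diseased and 102 to 324 CPM in the un-diseased group, with Lcn2 at 93.6 to 137 CPM the largest part in every sample, and T and NK cell markers to 4.35 to 12.6 and 4.95 to 12.5 CPM. Of 10 tested neutrophil markers 7 had positive fold changes and 3, Ngp, Camp and Ltf, negative ones (median 0.30). Csf3r, Cxcr2 and S100a9 passed as higher with the block, or 30% where 23.9% of all tested genes were called. Without it 0 passed by edgeR and 0 by DESeq2, where 3.73% and 11.4% of all tested genes did. At an unadjusted p under 0.05 there were 2 (20% against 27.8%). The part of these cells in the leukocyte integrins was not tested.

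**Figure D4:**
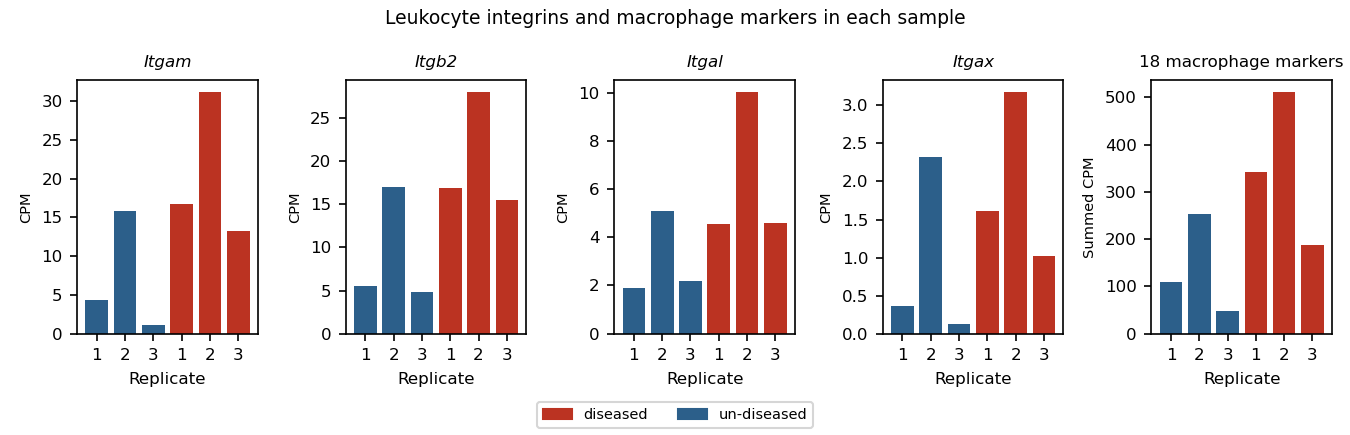
Bars give CPM of 4 leukocyte integrin chains, and at the right the summed CPM of 18 macrophage markers, in un-diseased (blue) and diseased (red) replicates 1 to 3. In each panel replicate 2 is the highest of its group and the diseased bar exceeds the un-diseased one of the same number.

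Of 8 cell-surface ligands of leukocyte integrins 5 were tested. By edgeR without the block 0 passed, where 3.73% of all tested genes did. At an unadjusted p under 0.05 there were 2 (40%, against 27.8% of all tested genes). DESeq2 called 2 (40% against 11.4%). With the block 1 rose and 1 fell (40% against 23.9%). Icam1, the ligand of the chains Itgal and Itgb2, had 177, 487 and 440 CPM in diseased and 809, 996 and 1027 CPM in un-diseased samples, and the groups did not overlap. Its change of -1.36 (SE 0.35) had an adjusted p of 0.0738 by edgeR, or 0.00422 with the replicate block. The receptor chains Itgal and Itgb2 had positive and Icam1 a negative fold change. The ligand that rose with the block was Jam3, at 0.46 on the log2 scale, so the ligands moved both ways. Jam3 was picked after its values were seen. Its diseased samples held 25.2 to 28.8 CPM and its un-diseased ones 18.3 to 21.4 CPM. By edgeR Jam3 missed the threshold without the block (adjusted p = 0.0624) and met it with the block (0.0153). DESeq2 called it as well (0.0343). Vcam1 had means of 471 ± 286 in diseased and 687 ± 402 CPM in un-diseased samples and did not pass.

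Inside the cell, none of the talins, kindlin 2 and vinculin passed the unblocked test, and 1 of these 4, kindlin 2, fell with the block. Fermt2, which encodes kindlin 2, had 192, 234 and 195 CPM in diseased and 249, 313 and 327 CPM in un-diseased samples, and the groups did not overlap. Its log2 fold change was -0.52 (SE 0.15, adjusted p = 0.0916 by edgeR), and it passed with the replicate block (adjusted p = 0.0172) and with DESeq2 (0.0161). Talin 1 (Tln1), which activates integrins, had 336, 392.02 and 335 CPM in diseased and 322, 336 and 311 CPM in un-diseased samples, with overlap. Talin 2 (Tln2), its relative, had 217, 228 and 195 CPM in diseased and 192, 172 and 185 CPM in un-diseased samples, without overlap. Neither talin passed. Vinculin (Vcl), which links talin to actin, had 191, 274 and 186 CPM in diseased and 159, 239 and 235 CPM in un-diseased samples. Its groups overlapped at a log2 fold change of 0.04 (SE 0.21), and 2090 of its exon bases overlap Ap3m1 on the other strand.

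In the complex of ILK, PINCH and parvin, Ilk, Lims1 and Parva were each a little higher in every diseased than in every un-diseased sample, and none passed. Ilk, the pseudokinase at the centre of the complex, had 93.3, 85.0 and 85.3 CPM in diseased and 84.8, 78.5 and 72.3 CPM in un-diseased samples, and 2461 of its exon bases overlap Rrp8 and Taf10 on the other strand. Lims1 (PINCH1), which joins ILK to its partners, had 123, 126 and 116 CPM in diseased and 111, 112 and 109 CPM in un-diseased samples. Parva (alpha-parvin), the actin-binding part, had 239.6, 268 and 243 CPM in diseased and 217, 218 and 238 CPM in un-diseased samples. Their log2 fold changes were 0.16, 0.14 and 0.16, with adjusted p of 0.319, 0.338 and 0.365 by edgeR. Lims2 (PINCH2) had the opposite sign, with 15.2, 8.97 and 11.1 CPM in diseased and 32.2, 16.5 and 12.2 CPM in un-diseased samples. Un-diseased replicate 1 was far above the other un-diseased samples. The change of Lims2 by -0.79 (SE 0.36) passed with the replicate block (adjusted p = 0.0272 by edgeR) and not without it (0.205).

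Of the kinases and scaffolds, paxillin fell. Pxn, on chromosome 5 from 115491970 to 115555987, encodes the scaffold that recruits FAK and other partners to adhesions. It had 92.5, 132 and 102 CPM in diseased and 172, 216 and 180 CPM in un-diseased replicates 1, 2 and 3. All diseased samples lay below all un-diseased ones, and the step within pairs was alike (log2 differences -0.89, -0.70 and -0.82). The log2 fold change was -0.80 (SE 0.16, adjusted p = 0.0443 by edgeR), with means of 109 ± 20.97 in diseased and 189 ± 23.3 CPM in un-diseased samples (SD, n = 3 each). The adjusted p passed when diseased replicate 2 (0.0493) or un-diseased replicate 1 (0.0394) was left out. It did not pass without diseased replicate 1 (0.0995) or 3 (0.18), or without un-diseased replicate 2 (0.113) or 3 (0.106). With the replicate block it was 0.00227, and it passed there with any pair left out.

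Tgfb1i1, which encodes Hic-5, a relative of paxillin induced by TGF-beta, had a fold change of the opposite sign. It had 43.1, 34.9 and 40.6 CPM in diseased and 33.1, 22.7 and 25.9 CPM in un-diseased samples, and the groups did not overlap. Its log2 fold change of 0.54 (SE 0.16) had an adjusted p of 0.0958 by edgeR, or 0.00887 with the replicate block. FAK (Ptk2), Src and p130Cas (Bcar1) are the kinases and docking protein that act with paxillin. Ptk2 had 61.5, 71.1 and 60.3 CPM in diseased and 69.1, 73.3 and 68.8 CPM in un-diseased samples, and Src 37.8, 49.9 and 51.4 against 44.98, 44.5 and 45.4 CPM. Bcar1 had means of 32.8 ± 3.33 in diseased and 31.9 ± 1.68 CPM in un-diseased samples (SD, n = 3 each). The groups overlapped for all 3 genes, log2 fold changes were -0.13, 0.04 and 0.04, and none passed with or without the block.

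Tensins link integrin tails to actin in fibrillar adhesions, and of the 3 measured Tns3 rose. Tns3, on chromosome 11 from 8431652 to 8664758, had 73.3, 81.6 and 68.9 CPM in diseased and 47.2, 52.3 and 53.5 CPM in un-diseased samples. Every diseased sample was above every un-diseased one. The log2 fold change was 0.55 (SE 0.10, adjusted p = 0.0388 by edgeR), with means of 74.6 ± 6.43 in diseased and 51.0 ± 3.32 CPM in un-diseased samples (SD, n = 3 each). The adjusted p passed without un-diseased replicate 1 (0.0445). It did not pass without diseased replicate 1 (0.077), 2 (0.0666) or 3 (0.132), or without un-diseased replicate 2 (0.106) or 3 (0.0955). With the block it was 0.00775 and passed with any pair left out.

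Tns1, the tensin with the most counts, had 275, 279 and 251 CPM in diseased and 324, 311 and 299 CPM in un-diseased samples, and the groups did not overlap, at an adjusted p of 0.241 by edgeR. Tns2 had 164, 109 and 117 CPM in diseased and 168, 120.0 and 115 CPM in un-diseased samples, so that replicate 1 was the highest of both groups and the groups overlapped. Zyxin (Zyx), which gathers at adhesions under tension, had 123, 160.1 and 129 CPM in diseased and 164, 182 and 173 CPM in un-diseased samples, and the groups did not overlap. Its change of -0.34 (SE 0.13) had an adjusted p of 0.15 by edgeR, or 0.0394 with the replicate block. The groups of Itgb1bp1, which binds the tail of the beta1 chain, and of Itgb3bp overlapped, and neither passed. Itgb1bp2 had at most 2 and Itgb2l at most 8 counts in a sample, and neither was tested.

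**Figure D5:**
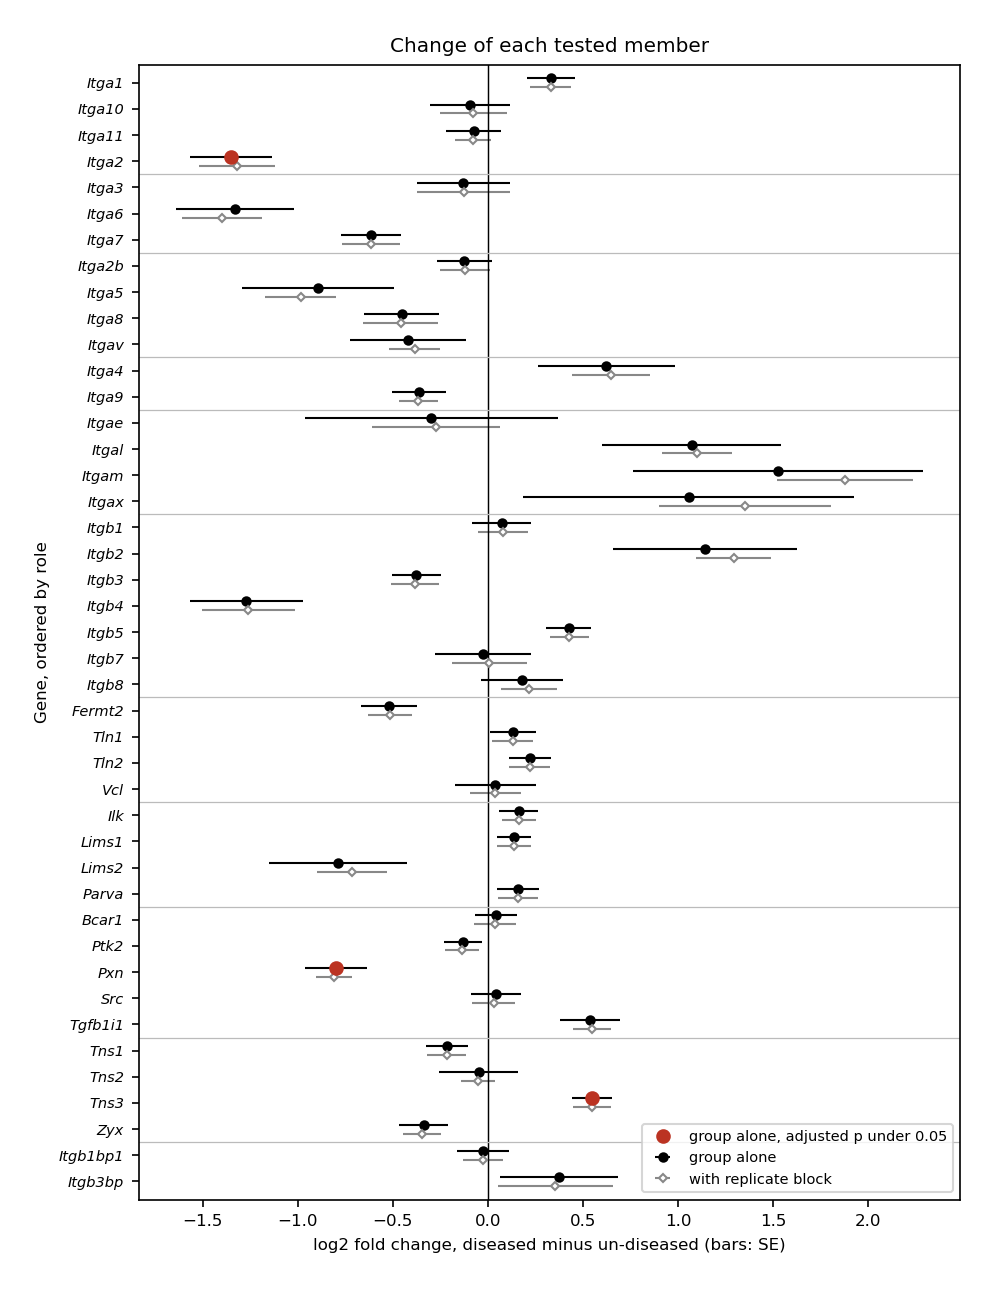
Log2 fold change, diseased minus un-diseased, with SE for each of the 43 tested members in order of role, for the fit on group alone (filled) and with the replicate block (open); red marks an adjusted p under 0.05 in the fit on group alone. Red points are Itga2 at -1.35, Pxn at -0.80 and Tns3 at 0.55, and bars are wide for leukocyte chains.

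Further focal adhesion proteins outside the rule were described by a list of 48, of which 47 were in the table and tested. In that list 1 rose, 0 fell and 46 did not pass by edgeR, where 3.73% of all tested genes were called. At an unadjusted p under 0.05 there were 9 higher and 9 lower, or 38.3% against 27.8% of all tested genes, and 3 higher and 6 lower were called by DESeq2, or 19.1% against 11.4%. With the block 10 rose and 9 fell, or 40.4% against 23.9%, and the median log2 fold change was 0.02, as for all tested genes. The member that rose was Actn1, which encodes the actin crosslinker alpha-actinin 1. It had 164, 222 and 175 CPM in diseased and 117, 116 and 117 CPM in un-diseased samples, so its log2 fold change was 0.68 (SE 0.13, adjusted p = 0.0417 by edgeR). The un-diseased samples were nearly identical in Actn1 and all below the diseased ones.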

How the data were processed

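RNA of 6 samples had been read in pairs on a BGISEQ-500, per the labels' protocols. The authors deposited estimated counts per gene, and their own log2 ratio of un-diseased over diseased with a p-value and q-value. The submitters' processing notes name RSEM 1.3.1, HISAT2 2.0.4, DESeq2 1.4.5 and the build GRCm38; their roles are not given in the sources used here. Rounding to whole numbers changed 9.61% of the estimated counts.

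In R 4.3.3 with edgeR 4.0.16, low genes were removed by filterByExpr (least count 10) and libraries scaled by TMM. Groups were compared by edgeR's quasi-likelihood test on group alone, with Benjamini-Hochberg adjustment over all 13264 tested genes and a threshold of 0.05. SE is the fold change over the root of the test's F value. A count of 3 was worth 0.147 to 0.188 CPM. Alternatives were RLE and upper-quartile factors, 2 filters, DESeq2 1.42.0, limma-voom (limma 3.58.1), the replicate block, and leaving out samples or pairs. Deviations of same-numbered samples from their group means correlated at 0.487, 0.578 and 0.276. The fit with the block took the numbers in the titles to pair the samples, which the labels do not state. Replicates of a group differed beyond sampling noise (chi-square per gene 25.3 to 61.7). Within-pair differences are of log2 CPM with a prior count of 2. Exon lengths come from GENCODE M21 (GRCm38), and positions from RefSeq; all 46 members matched both, and 32 had a promoter entry. The fits were tested on simulated data for recovery of set fold changes, and false calls were not counted. The simulation held no replicate effect, so it could not check what the block adds.

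Members and gene lists were chosen with earlier results of these data known. Values in every sample were given for members called with or without the block, for leukocyte integrins and for the 3 members with the highest CPM of each role (all where a role has at most 4). Of the other lists, up to 6 called members by adjusted p were named, or the 2 with the highest CPM where none was called.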

Additional observations from a re-analysis of the deposited data

How the results depend on the processing

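Main counts were 1 member higher and 2 lower, and 213 and 282 over all tested genes. With the replicate block (pairing by number) they were 6 and 10, and 1397 and 1770. With the block and without pair 1, 2 or 3, 5, 6 and 4 members were higher and 8, 7 and 5 lower, and 1013, 809 and 426 genes were higher and 1556, 1274 and 583 lower. With DESeq2 2 members were higher and 6 lower, and 635 and 882 genes. With upper-quartile factors 2 members and 417 genes were higher, and 59.1% of calls were upward against 43% with TMM. Leaving out 1 sample gave 0 to 2 members higher and 0 to 3 lower, and 2 to 354 and 3 to 721 genes. No member was called without diseased replicate 3, un-diseased replicate 2 or un-diseased replicate 3, when 11, 15 and 13 members had an unadjusted p under 0.05 by edgeR. RLE factors, limma-voom and the 2 other filters kept all counts within 1.5 times. The cause of the other moves was not tested. Over the 16 alternatives 32 of the 43 tested members kept their sign, among them the 16 called with the block. The other 11 had a log2 fold change of at most 0.30 in size. Upper-quartile factors moved the median of all genes by 0.08 on the log2 scale and turned the sign of Itga11, Itgb1bp1, Itgb7 and Tns2.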
